A study of Mus musculus with 8 samples.

Results

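The 45 genes described here belong to glutathione metabolism and to the antioxidant programme of the transcription factor NRF2, and they were chosen by name. Each of the 45 names matched 1 row of the 23386 genes in the deposited table, and 42 of them were abundant enough to be tested. They comprise 21 glutathione transferase genes, 6 peroxidase genes, 7 genes of glutathione synthesis and recycling, 8 genes of NRF2 and its control and targets, and 3 superoxide dismutase genes. Kidneys of Ctrp1-/- mice (KO, 4 libraries) were compared with kidneys of wild-type mice (WT, 4 libraries), all aged 49 weeks. The KO mice carry a constitutive deletion in exon 4 of C1qtnf1, the gene of the secreted protein CTRP1, on a C57BL/6J background reached by backcrossing from 129S5/Sv embryonic stem cells. Both groups came from crosses of heterozygous mice, and each library holds the poly-A RNA of 1 whole left kidney, in which all cell types of the organ are mixed. The labels name no treatment for either group and do not give the sex of each mouse.

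Glutathione is a tripeptide whose free thiol reduces peroxides and captures electrophiles. Its synthesis begins with glutamate-cysteine ligase, which consists of a catalytic subunit (Gclc) and a modifier subunit (Gclm), and ends with glutathione synthetase (Gss). Glutathione transferases attach it to reactive compounds, glutathione peroxidases spend it on peroxides, and glutathione reductase (Gsr) regenerates it with NADPH. NRF2, encoded by Nfe2l2, is held low by KEAP1 and, when released, binds antioxidant response elements with a small MAF partner. The proximal tubule is rich in these enzymes, breaks down filtered glutathione with gamma-glutamyl transferase (Ggt1) and secretes the plasma glutathione peroxidase GPX3.

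The core of the antioxidant response element, TGACNNNGC, was searched on both strands of RefSeq promoters (GRCm38.p6), each reaching from 250 bases before to 50 bases after a gene's start. A promoter was found for 38 of the 45 genes, and 12 of the 38 (31.6%) held the core, against 3781 of 27025 genes (14.0%) in the whole table. The 7 genes without an entry were Gsta4, Gstt2, Prdx6, Gclc, Gsr, Hmox1 and Sod3. A match is a run of letters and not a shown binding site. The 6 windows of 29 bases below show the core in Gclm, the only one of the genes that was higher in KO at an unadjusted p under 0.05, in the 3 genes with a core that stood lower (Gsta3, Gstm5 and Mgst1), in Nfe2l2 itself, and in Prdx1, where the core also holds the AP-1 sequence TGACTCA. Capitals mark the core, and each sequence is given 5′ to 3′ on the strand named.
Gclm (chr3:122245413-122245441, minus strand, gene on plus): tcgtgagagtTGACGGTGCgcccgggagc
Gsta3 (chr1:21240454-21240482, plus strand, gene on plus): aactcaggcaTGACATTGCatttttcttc
Gstm5 (chr3:107895802-107895830, plus strand, gene on plus): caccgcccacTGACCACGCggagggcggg
Mgst1 (chr6:138140461-138140489, minus strand, gene on plus): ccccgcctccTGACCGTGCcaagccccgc
Nfe2l2 (chr2:75704885-75704913, minus strand, gene on minus): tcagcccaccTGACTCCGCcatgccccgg
Prdx1 (chr4:116685456-116685484, minus strand, gene on plus): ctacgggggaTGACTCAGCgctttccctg
The other genes with a core were Gstm7, Ggt1, G6pdx, Srxn1, Txnrd1 and Sod1. The median log2 fold change of KO over WT was -0.084 for the 12 genes with a core and -0.191 for the 23 tested genes whose promoter lacked it. Sequence outside these 300 bases was not searched, so a gene without a core here may have one elsewhere.

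The libraries held 15027400 to 19256378 counted reads. C1qtnf1 measured 0.189, 0.576, 0.228 and 0.312 scaled FPKM (deposited FPKM divided by 1 factor per library) in KO replicates 1 to 4, against 3.86, 2.74, 3.19 and 4.76 in WT replicates 1 to 4. The targeted gene thus stood apart in the groups as labelled (log2 fold change -2.32, SE 0.183, limma adjusted p = 0.000767). All 12 kidney marker genes checked were present, among them Umod, Slc34a1 and Aqp2. Xist was at most 0.0170 and the Y-linked gene Ddx3y at least 9.50 scaled FPKM in all 8 libraries, the pattern of male tissue. WT replicate 3 stood apart: the tubule injury gene Havcr1 was at 4.75 there, against 0.521 to 1.89 in the other WT libraries and 0.484 to 0.658 in KO, and its mean score of 10 injury markers was the highest (0.83, on the log2 scale, against -0.30 to 0.20 in the other 7 libraries). Where leaving that library out changed whether one of the 45 genes had an unadjusted p under 0.05, the value without it is given.

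None of the 42 tested genes differed between the genotypes after adjustment over all 14030 genes tested (limma, 0 of 42, smallest adjusted p = 0.114 for Gstp1), while 0.0499% of all genes passed. At an unadjusted limma p under 0.05, 15 of the 42 (35.7%) were lower in KO, against a background of 8.25% of all genes tested, and 1 of the 42, Gclm, was higher, against 7.18%. The log2 fold change was below 0 for 33 of the 42 (78.6%), against 50.4% of all genes tested, and its median was -0.117, against -0.001 over all genes tested. The 15 lower genes were Gstp1, Gstt1, Gstt2, Gsta2, Gsta3, Gsta4, Gstm5, Gsto1, Mgst1, Mgst3, Gpx1, Gpx3, Gpx4, Hmox1 and Osgin1, so that 10 of them encode glutathione transferases. By role, 4 of 10 alpha and mu class transferases, 6 of 9 other transferases, 3 of 6 peroxidases, 0 of 6 genes of glutathione synthesis and recycling, 2 of 8 NRF2 control and target genes and 0 of 3 superoxide dismutases were lower at that p. The KO and WT libraries did not overlap for 6 genes that were lower in KO, Gstp1, Gstt1, Gstt3, Mgst3, Prdx6 and Hmox1 (14.3%, background 4.28%), and for 1 that was higher, Gclm (2.38%, background 4.34%). Because the genes are expressed in overlapping sets of cells, they are not independent of each other, and in a whole kidney fewer cells of a type cannot be told apart from less RNA per cell.

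**Figure D1:**
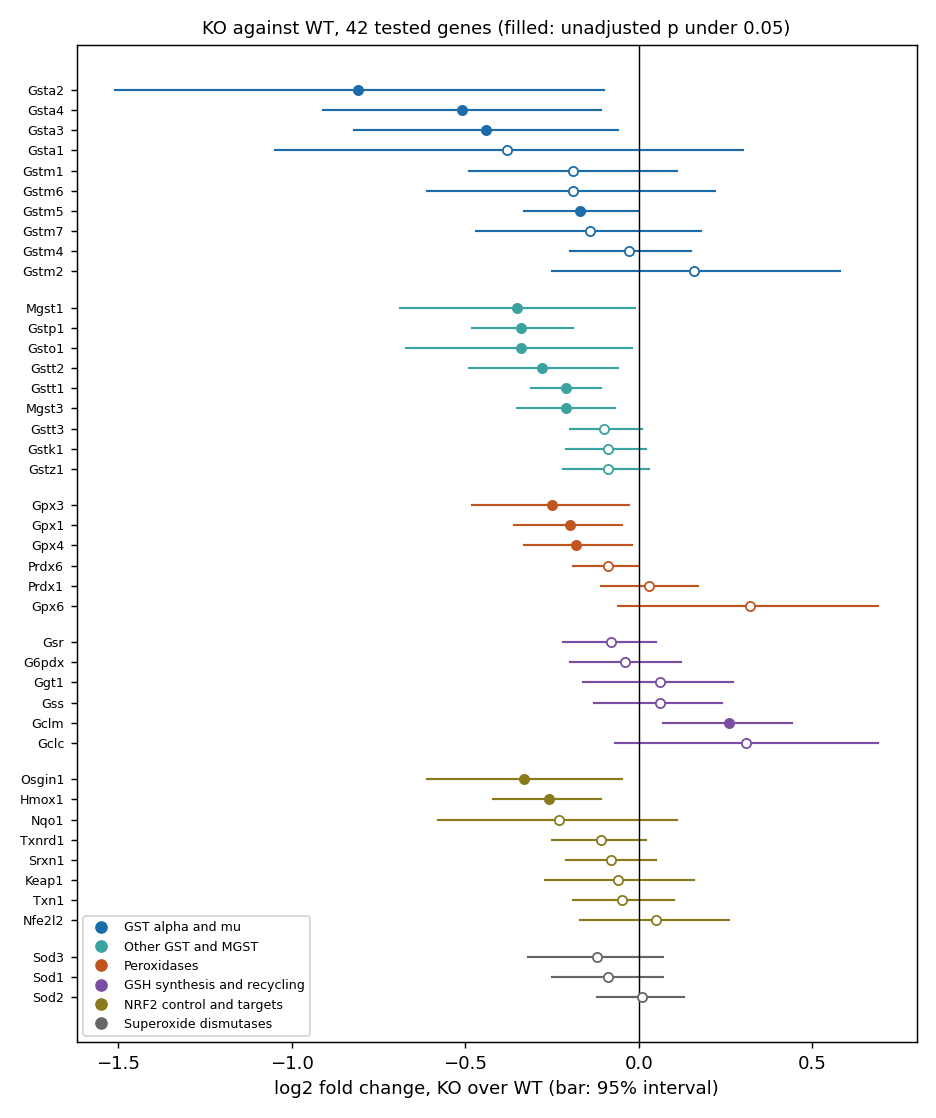
Horizontal axis, log2 fold change (KO over WT) with its 95% interval from limma for the 42 tested genes, ordered by role; filled points had an unadjusted p under 0.05 and no gene passed after adjustment. Gsta2 stood lowest at -0.81 and Gpx6 highest at 0.32, a value that was 0.185 without KO replicate 3.

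Across the whole set, levels spanned more than 5 orders of magnitude. The 45 genes together took 2.82%, 3.12%, 3.05% and 3.41% of the counted reads in KO replicates 1 to 4, against 3.61%, 3.51%, 3.78% and 3.35% in WT replicates 1 to 4. Gpx3 alone took 1.92% to 2.51% in KO and 2.42% to 2.84% in WT. Without Gpx3 the set took 0.893% to 0.903% in KO and 0.928% to 1.00% in WT, so the ranges did not overlap. The order of the levels per length was nearly the same in both groups: Gpx3, Gpx1, Sod1, Ggt1 and Gpx4 held ranks 1 to 5 in each. Sod1 and Gpx4 did not overlap with each other in either group, whereas Ggt1 and Gpx4 did overlap in WT, where Ggt1 spread from 449 to 611 scaled FPKM and Gpx4 from 433 to 525. Gclc, at rank 17 in KO and rank 22 in WT, and Gclm, at rank 19 in KO and rank 25 in WT, stood higher in the order in KO. Gsta2 stood at rank 9 in KO and at rank 6 in WT.

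**Figure D2:**
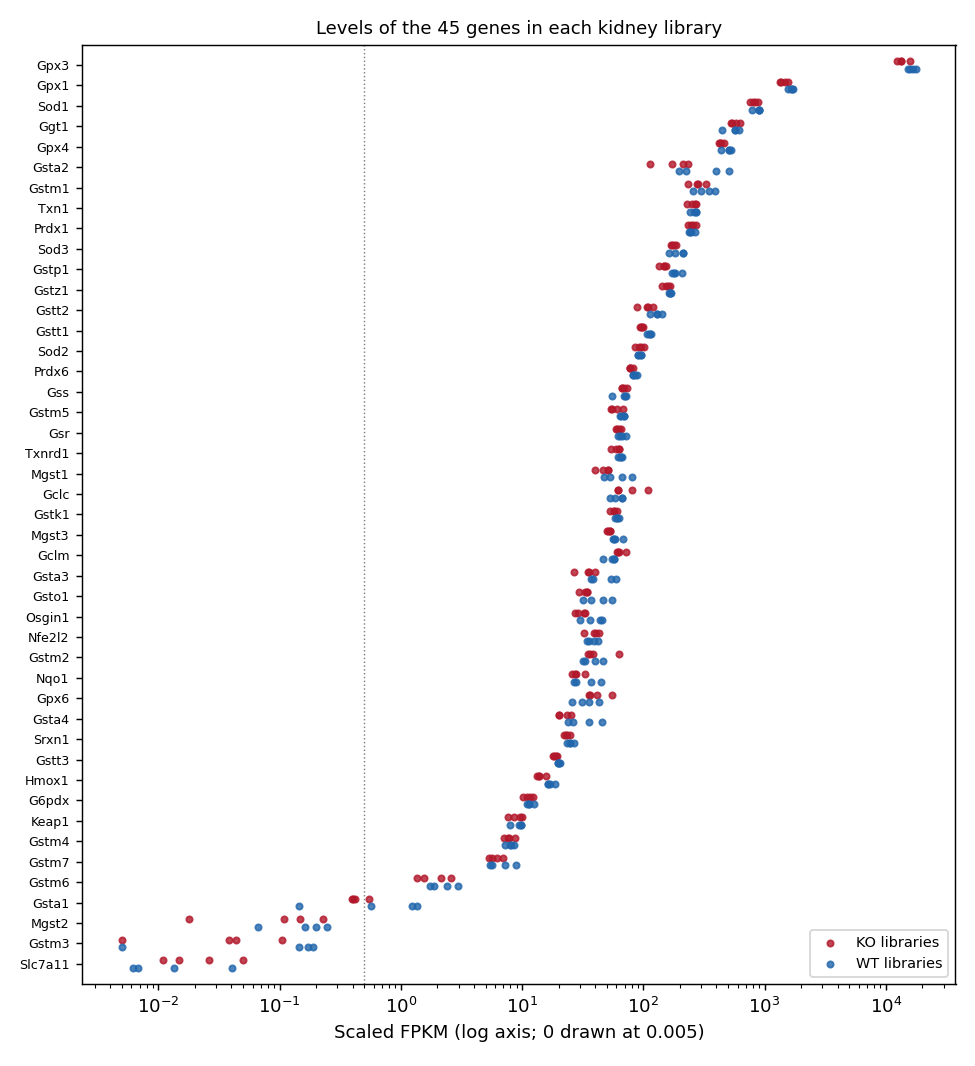
Scaled FPKM of the 45 genes in each library (horizontal log axis, libraries at 0 drawn at 0.005), KO libraries above and WT libraries below each gene's line; the dotted line marks the level of 0.5 that a gene's mean had to reach to be tested. Gpx3 lay between 12379 and 15960.0 in KO and between 15355 and 17686 in WT, and Mgst2, Gstm3 and Slc7a11 lay under the dotted line.

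The control genes of the programme differed little. Nfe2l2 (ENSMUSG00000015839; chromosome 2, 75675513 to 75704641, minus strand, mm10) measured 41.0, 32.6, 43.3 and 39.5 scaled FPKM in KO replicates 1 to 4, against 35.4, 39.3, 41.96 and 34.4 in WT replicates 1 to 4. The groups overlapped over most of their range (log2 fold change 0.05, SE 0.095, 95% interval -0.17 to 0.26, limma adjusted p = 0.843). Keap1, the adaptor that targets NRF2 for degradation, measured 7.63, 9.94, 9.60 and 8.50 in KO, against 9.80, 9.85, 7.99 and 9.47 in WT. Its libraries overlapped too (-0.06, SE 0.095, 95% interval -0.27 to 0.16, limma adjusted p = 0.806). NRF2 is regulated mainly through the stability of its protein, which messenger RNA does not measure.

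Of the NRF2 targets, Hmox1 and Osgin1 were lower in KO at an unadjusted p under 0.05. Hmox1 encodes the inducible haem oxygenase and lies on chromosome 8 (75093591 to 75100596, plus strand, mm10). It measured 13.3, 13.8, 15.8 and 13.8 scaled FPKM in KO, against 16.2, 18.7, 16.3 and 17.2 in WT. Every KO library lay below every WT library, with a log2 fold change of -0.26 (SE 0.069, 95% interval -0.42 to -0.11, limma unadjusted p = 0.00378, adjusted p = 0.173). Osgin1, an NRF2-responsive growth inhibitor gene, measured 28.999, 27.2, 32.9 and 32.5 in KO, against 36.1, 43.6, 29.8 and 45.4 in WT. WT replicate 3 lay within the KO range, and the other 3 WT libraries lay above it (-0.33, SE 0.125, limma unadjusted p = 0.0259, adjusted p = 0.266). Without WT replicate 3 the log2 fold change of Osgin1 was -0.45 and its limma unadjusted p was 0.00122, whereas with GC and length trends removed they were -0.20 and 0.0833.

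Nqo1, the quinone reductase that is the usual marker of NRF2 activity, measured 25.8, 32.9, 27.6 and 27.4 scaled FPKM in KO, against 27.7, 44.7, 37.3 and 26.8 in WT. WT replicates 2 and 3 were high and the other WT libraries matched KO (-0.23, SE 0.154, 95% interval -0.58 to 0.11, limma adjusted p = 0.486). Srxn1, which repairs over-oxidised peroxiredoxins, measured 22.3, 23.0, 23.6 and 25.0 in KO, against 26.6, 23.3, 24.7 and 24.9 in WT, with overlapping groups (-0.08, SE 0.057, limma adjusted p = 0.512). The thioredoxin reductase gene Txnrd1 measured 53.7, 62.8, 63.4 and 59.0 in KO, against 65.5, 66.4, 64.4 and 61.5 in WT (-0.11, SE 0.060, 95% interval -0.25 to 0.02, limma adjusted p = 0.394). Its groups overlapped at WT replicate 4. Txn1, the thioredoxin that this reductase serves, averaged 254 ± 18.3 in KO and 262 ± 14.3 in WT (SD, n = 4 each). NRF2's best known cystine exchanger gene in cultured cells, Slc7a11, had 16 reads in the 4 KO libraries together and 10 in the 4 WT libraries, and its highest library was at 0.0501 scaled FPKM. It was too low to be tested (exact two-sided permutation p = 0.486).

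Both subunits of the first enzyme of glutathione synthesis averaged higher in KO, unlike most of the transferases, and neither passed after adjustment. Gclm (ENSMUSG00000028124; chromosome 3, 122245557 to 122269984, plus strand, mm10) measured 72.6, 62.0, 63.3 and 60.7 scaled FPKM in KO replicates 1 to 4, against 55.4, 57.4, 46.2 and 57.6 in WT replicates 1 to 4. All 4 KO libraries lay above all 4 WT libraries, the lowest KO value being 60.7 and the highest WT value 57.6. The log2 fold change was 0.26 (SE 0.083, 95% interval 0.07 to 0.44, limma unadjusted p = 0.0121, adjusted p = 0.220). Once the dependence of each library on GC content and on gene length was taken out, it was 0.20 with a limma unadjusted p of 0.0545, and the groups overlapped. An antisense gene, Gm17494, overlaps 14027 bases of the Gclm span, and without stated strandedness its reads cannot be separated there. The same limit holds for Gsta3 (15303 bases), Gsto1 (9821 bases), Gstm5, Gstz1, Gss, G6pdx and Keap1, which genes on the other strand also overlap.

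Gclc measured 108, 81.0, 61.3 and 61.3 scaled FPKM in KO, against 58.8, 67.1, 52.7 and 66.5 in WT. KO replicate 1 was far above the rest and KO replicates 3 and 4 lay within the WT range, so the difference (0.31, SE 0.171, 95% interval -0.07 to 0.69, limma adjusted p = 0.401) rests largely on 1 library. Without KO replicate 1 the log2 fold change of Gclc was 0.14, and without KO replicate 3 it was 0.413 (limma unadjusted p = 0.0389). KO replicate 1 was also the library with the highest Gclm. Gss averaged 69.2 ± 3.08 in KO and 66.8 ± 7.71 in WT, and Ggt1 averaged 569 ± 42.7 in KO and 549 ± 69.9 in WT (SD, n = 4 each). Both had their lowest library in WT replicate 3, and both log2 fold changes, 0.06 each, turned negative without it (-0.031 and -0.037).

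Gsr measured 59.0, 63.1, 65.8 and 60.9 in KO, against 66.4, 72.1, 64.1 and 61.3 in WT. These ranges overlapped (-0.08, SE 0.060, 95% interval -0.22 to 0.05, limma adjusted p = 0.527). G6pdx, which makes NADPH for this reductase, averaged 11.3 ± 0.928 in KO and 11.6 ± 0.720 in WT (SD, n = 4 each; limma adjusted p = 0.796).

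Gstp1 and Gstt1 showed the clearest separation of all 45 genes. Gstp1 (ENSMUSG00000060803; chromosome 19, 4035407 to 4037921, minus strand, mm10), the pi class transferase, measured 136, 153, 148 and 147 scaled FPKM in KO replicates 1 to 4, against 178, 207, 181 and 173 in WT replicates 1 to 4. Every KO library lay below every WT library, the highest KO value being 153 and the lowest WT value 173. Its log2 fold change was -0.34 (SE 0.065, 95% interval -0.48 to -0.19, limma unadjusted p = 0.000425, adjusted p = 0.114), and by p it ranked 52 of the 14030 genes tested. Of the 50-base stretches of its longest transcript, 62.3% also occur in the neighbouring copy Gstp2, so reads may be split between them. Gstp2, named after its values were seen, measured 2.35 ± 0.405 in KO and 2.95 ± 0.691 in WT (SD, n = 4 each), far below Gstp1.

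Gstt1 (ENSMUSG00000001663; chromosome 10, 75783813 to 75798584, minus strand, mm10), a theta class transferase, measured 97.0, 93.5, 95.4 and 99.9 in KO, against 113, 112, 115 and 107 in WT. No library of one group reached the range of the other, and the spread within each group was about 3% of its mean (coefficient of variation 2.83% in KO and 3.13% in WT). The log2 fold change was -0.21 (SE 0.045, 95% interval -0.31 to -0.11, limma unadjusted p = 0.000858, adjusted p = 0.139). Of its neighbours on chromosome 10, Gstt2 measured 109.7, 108, 88.8 and 119.8 in KO, against 129, 144, 129 and 115 in WT, and KO replicate 4 lay above WT replicate 4 (-0.28, SE 0.096, limma unadjusted p = 0.0163, adjusted p = 0.239). Gstt3 measured 19.3, 18.1, 19.2 and 18.3 in KO, against 19.7, 20.6, 20.2 and 19.6 in WT. These did not overlap, yet the difference was small (-0.10, SE 0.047, limma unadjusted p = 0.0688, adjusted p = 0.354).

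**Figure D3:**
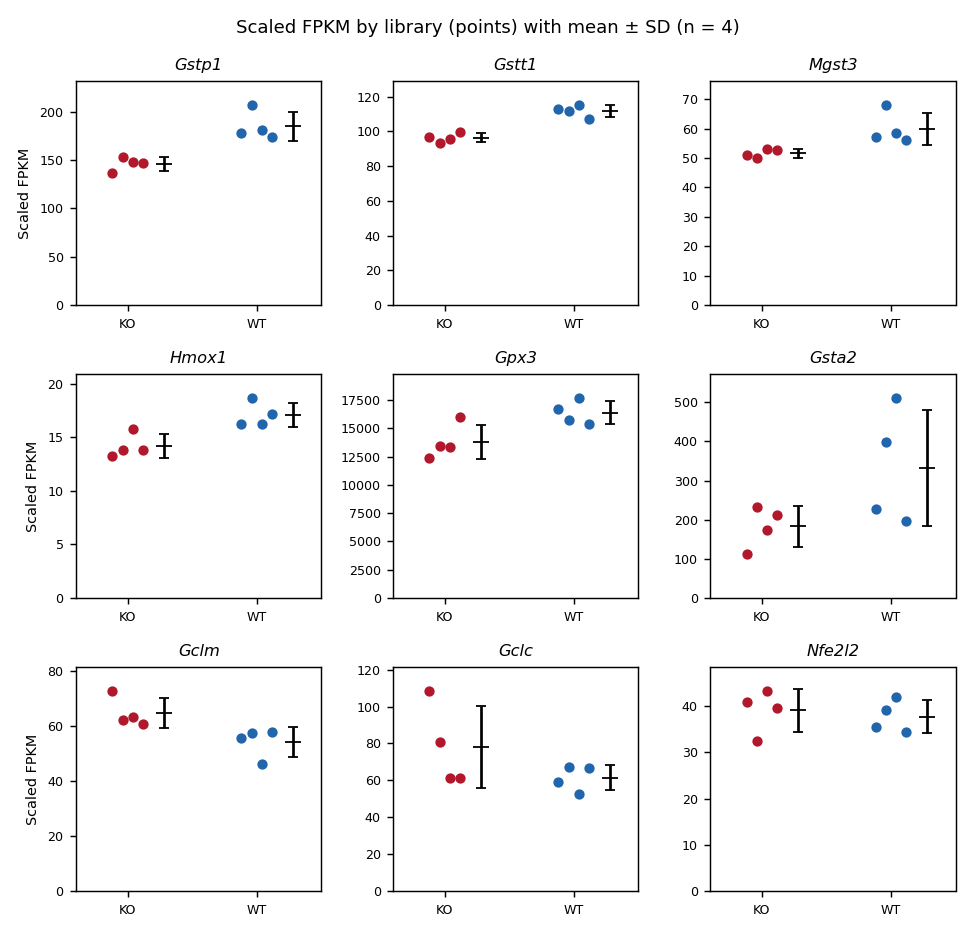
Scaled FPKM (vertical axes, linear, from 0) of 9 genes in each KO and WT library; points are libraries, in the order of replicates 1 to 4 within a group, with a bar for the mean ± SD of the 4 libraries. Gstp1, Gstt1, Mgst3 and Hmox1 were lower in every KO library, Gclm was higher in every KO library, and in Gsta2 the WT spread came from replicates 2 and 3 at 398 and 511.

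Membrane-bound and omega class transferases were lower as well. Mgst3, a microsomal transferase, measured 50.8, 49.9, 52.9 and 52.6 scaled FPKM in KO, against 57.0, 68.0, 58.3 and 56.1 in WT. The groups did not overlap (-0.21, SE 0.064, 95% interval -0.35 to -0.07, limma unadjusted p = 0.00908, adjusted p = 0.211). Mgst1 measured 40.2, 51.2, 51.2 and 46.8 in KO, against 52.6, 66.3, 79.9 and 47.1 in WT, where replicates 2 and 3 stood out (-0.35, SE 0.152, limma unadjusted p = 0.0452, adjusted p = 0.314). Gsto1, an omega class enzyme that reduces dehydroascorbate, had the same shape, with 29.2, 32.7, 34.4 and 34.6 in KO, against 37.0, 46.1, 54.7 and 31.8 in WT (-0.34, SE 0.146, limma unadjusted p = 0.0418, adjusted p = 0.306). Without WT replicate 3 the log2 fold change of Mgst1 was -0.21 and its limma unadjusted p was 0.118, and for Gsto1 they were -0.21 and 0.106. The mitochondrial and peroxisomal Gstk1 averaged 56.7 ± 3.00 in KO and 60.5 ± 2.07 in WT, and Gstz1, which acts in tyrosine breakdown, averaged 156 ± 10.6 in KO and 166 ± 2.99 in WT (SD, n = 4 each). Their limma adjusted p-values were 0.407 and 0.449. Mgst2 was too low to be tested, with 23 reads in the KO libraries together and 31 in the WT libraries (exact two-sided permutation p = 0.486).

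Alpha class genes spread widely between the WT animals, with coefficients of variation from 23.8% to 69.1%. Gsta2 measured 113, 233, 173 and 212 scaled FPKM in KO, against 226, 398, 511 and 197 in WT. WT replicates 2 and 3 were high, WT replicates 1 and 4 were close to 3 of the KO libraries, and KO replicate 1 was low (-0.81, SE 0.317, 95% interval -1.51 to -0.10, limma unadjusted p = 0.0296, adjusted p = 0.278). Gsta3 measured 26.7, 35.8, 39.6 and 35.3 in KO, against 37.1, 54.0, 59.8 and 38.5 in WT (-0.44, SE 0.168, limma unadjusted p = 0.0263, adjusted p = 0.266). Its highest KO library lay above WT replicates 1 and 4. Gsta4, whose product conjugates lipid aldehydes such as 4-hydroxynonenal, measured 23.3, 20.2, 25.2 and 20.1 in KO, against 26.3, 35.5, 45.4 and 23.8 in WT. KO replicate 3 passed WT replicate 4, and the same WT libraries were high (-0.51, SE 0.179, limma unadjusted p = 0.0175, adjusted p = 0.243). Gsta1 was near the limit of testing, at 0.440 ± 0.0710 in KO and 0.824 ± 0.570 in WT (SD, n = 4 each). Its log2 fold change of -0.38 was -0.684 without WT replicate 1 (limma unadjusted p = 0.00850). Of the 50-base stretches of its transcript 89.7% occur in other genes' transcripts, and 64.2% of those of Gsta2 do, so reads of these copies are uncertain.

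Without WT replicate 3 the log2 fold changes of Gsta2, Gsta3 and Gsta4 were -0.56, -0.32 and -0.34, with limma unadjusted p-values of 0.0848, 0.0752 and 0.0333. Male-biased markers and tubule injury markers also differed across the libraries. Markers of male-biased kidney genes, 10 in all, had mean scores on the log2 scale of 0.51, 0.16, 0.15 and 0.19 in KO replicates 1 to 4, and of -0.05, -0.35, -0.65 and 0.04 in WT replicates 1 to 4. They were thus lowest in WT replicates 2 and 3, where the alpha class was highest, and highest in KO replicate 1, where Gsta2 was lowest. Tubule injury markers, 10 in all, summed to 441 to 569 scaled FPKM in KO and 419.5 to 813 in WT, and their 2 highest WT libraries were replicates 3 and 2. KO replicate 3, at 569, lay above WT replicate 2, at 563. Its alpha class genes summed to 238 scaled FPKM, against 489 in WT replicate 2. The part of either in the difference was not tested.

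**Figure D4:**
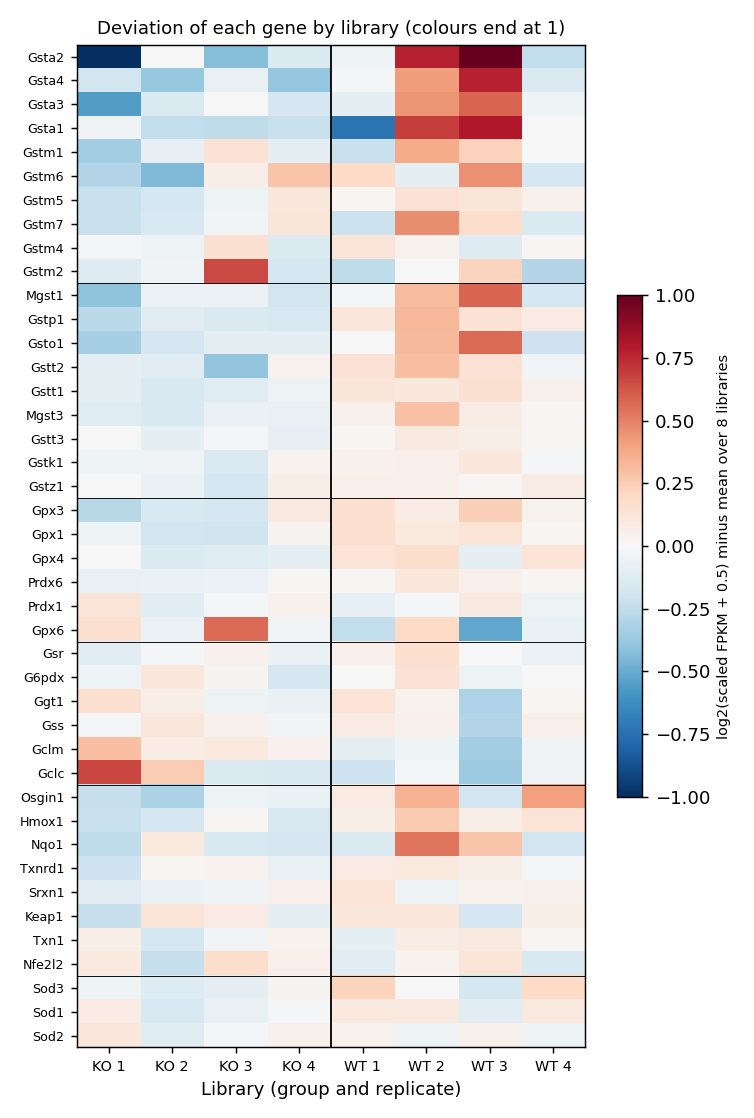
Deviation of log2(scaled FPKM + 0.5) from each gene's mean over the 8 libraries (colour, red higher and blue lower, ending at 1 in either direction) for the 42 tested genes, KO libraries left and WT libraries right of the black line, with genes ordered by role. Gsta1 to Gsta4, Mgst1, Gsto1 and Nqo1 were high in WT replicates 2 and 3, and Gclc and Gclm were highest in KO replicate 1.

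The mu class genes lie together on chromosome 3 (Gstm5 from 107895821 to Gstm4 ending at 108044894, mm10), and of the 6 tested 1 was lower at an unadjusted p under 0.05. Gstm1, the most abundant, measured 235, 283, 329 and 279 scaled FPKM in KO, against 256, 387, 351 and 298 in WT, with overlapping groups (-0.19, SE 0.135, 95% interval -0.49 to 0.11, limma adjusted p = 0.520). Without WT replicate 1 the log2 fold change of Gstm1 was -0.30 and its limma unadjusted p 0.0399. Gstm5 measured 53.8, 55.6, 60.9 and 68.2 in KO, against 64.0, 69.7, 68.7 and 64.9 in WT. KO replicate 4 alone reached the WT range (-0.17, SE 0.074, limma unadjusted p = 0.0489, adjusted p = 0.321). Without WT replicate 3 the log2 fold change of Gstm5 was -0.15 and its limma unadjusted p 0.0928. Gstm2 averaged 43.1 ± 13.2 in KO and 37.7 ± 6.56 in WT, the KO mean being raised by replicate 3 at 62.8. Without that library its log2 fold change, 0.16, was -0.031. Gstm4, Gstm6 and Gstm7 had log2 fold changes of -0.03, -0.19 and -0.14 with limma adjusted p-values of 0.886, 0.645 and 0.660. Gstm3 had 4 reads in the KO libraries together and 11 in the WT libraries and was not tested with the others (exact two-sided permutation p = 0.171). Together the 7 mu class genes summed to 339 to 470.3 scaled FPKM in KO and 370.0 to 516 in WT.

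All 3 of the abundant glutathione peroxidases stood lower in KO at an unadjusted p under 0.05, and none of the 3 did with GC and length trends removed. Gpx3 (ENSMUSG00000018339; chromosome 11, 54902453 to 54910377, plus strand, mm10) encodes the plasma enzyme and was the most abundant of the 45 genes, with at least 289078 reads in each library. It measured 12379, 13476, 13324 and 15960.0 scaled FPKM in KO replicates 1 to 4, against 16706, 15772, 17686 and 15355 in WT replicates 1 to 4. KO replicate 4 lay among the WT libraries and the other 3 KO libraries lay below them all. The log2 fold change was -0.25 (SE 0.10, 95% interval -0.48 to -0.03, limma unadjusted p = 0.0305, adjusted p = 0.280). With GC and length trends removed it was -0.18, at a limma unadjusted p of 0.107, and without WT replicate 3 it was -0.22, at 0.0771.

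Gpx1, the cytosolic enzyme, measured 1487, 1360.2, 1342 and 1568 in KO, against 1719, 1646, 1697 and 1565 in WT. KO replicate 4 and WT replicate 4 were nearly equal, so the groups overlapped narrowly (-0.20, SE 0.068, 95% interval -0.36 to -0.05, limma unadjusted p = 0.0133, adjusted p = 0.227). With GC and length trends removed the log2 fold change of Gpx1 was -0.13 and its limma unadjusted p 0.0945. Red cells also contain this enzyme, and 7 erythroid markers summed to 575 to 3379 scaled FPKM in KO and 772 to 1284 in WT, with the highest sum in KO replicate 4. Gpx4, which reduces lipid hydroperoxides and restrains ferroptosis, measured 465, 421, 427 and 435 in KO, against 510.1, 525, 433 and 511 in WT. WT replicate 3 fell inside the KO range and the other 3 WT libraries lay above it (-0.18, SE 0.069, limma unadjusted p = 0.0293, adjusted p = 0.277). Its value depended on the setting: the log2 fold change of Gpx4 was -0.24 without WT replicate 3 (limma unadjusted p = 0.00120, adjusted p = 0.0720), -0.08 with GC and length trends removed (limma unadjusted p = 0.173) and -0.10 with quantile normalization (limma unadjusted p = 0.117). A processed copy, Gpx4-ps2, holds 61.7% of the 50-base stretches of the Gpx4 transcript, so its level is uncertain.

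Gpx6 averaged 42.4 ± 9.03 in KO and 33.9 ± 7.18 in WT (SD, n = 4 each; 0.32, 95% interval -0.06 to 0.69, limma adjusted p = 0.382). The log2 fold change of Gpx6 was 0.185 without KO replicate 3, 0.199 without WT replicate 3 and 0.439 without WT replicate 2, where its limma unadjusted p was 0.0227. Prdx6, a peroxiredoxin that also uses glutathione, measured 77.7, 78.0, 78.4 and 82.2 in KO, against 82.5, 88.0, 84.7 and 82.8 in WT. The highest KO library came just short of the lowest WT library (-0.09, SE 0.044, limma unadjusted p = 0.0567, adjusted p = 0.337). Prdx1 averaged 253 ± 17.2 in KO and 247 ± 12.9 in WT (SD, n = 4 each), with a log2 fold change of 0.03, which became -0.025 once GC and length trends were removed. In the proximal tubule, convoluted-part markers had lower sums in KO, and straight-part markers did not. The 10 convoluted markers summed to 3819 to 4045 scaled FPKM in KO and 4365 to 4736 in WT, without overlap, and 5 of the 10 were lower at an unadjusted p under 0.05. The 10 straight-part markers summed to 2719 to 3341 in KO and 1653 to 2943 in WT, and 4 of the 10 were higher at that p (40.0%, against 7.18%). Those 4 were Slc5a8, Slc7a13, Atp11a and Cyp7b1. Slc7a13 and Cyp7b1 also belong to the male-biased markers, of which 7 of 10 were higher at that p, so these lists are not separate observations. The 9 markers of intercalated cells summed to 127 to 138 in KO and 141 to 155 in WT, without overlap. Of the 9, 5 were lower at that p (55.6%, against 8.25%). The part of any of these in the lower values was not tested.

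The superoxide dismutases, which turn superoxide into hydrogen peroxide, did not reach an unadjusted p under 0.05 with all 8 libraries. Sod1, the cytosolic copper-zinc enzyme, measured 891, 758, 805 and 839 scaled FPKM in KO, against 904, 908, 781 and 906 in WT. WT replicate 3 stood well below the other 3 WT libraries, which lay close together (-0.09, SE 0.072, 95% interval -0.25 to 0.07, limma adjusted p = 0.585). Without it no KO library reached the WT range, and the log2 fold change was -0.14 (limma unadjusted p = 0.0535). The mitochondrial Sod2 averaged 93.7 ± 6.54 in KO and 93.3 ± 3.10 in WT (log2 fold change 0.01, 95% interval -0.12 to 0.13, limma adjusted p = 0.976). The secreted Sod3 averaged 176 ± 8.40 in KO and 193 ± 24.4 in WT (SD, n = 4 each), with a log2 fold change of -0.12 (limma unadjusted p = 0.188, adjusted p = 0.519). Without WT replicate 3 the log2 fold change of Sod3 was -0.20 and its limma unadjusted p 0.0140.

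Of 118 other genes of the same pathways, 107 were tested, and none passed after adjustment (limma, 0 of 107). At an unadjusted p under 0.05, 21 of the 107 (19.6%) were lower in KO, against 8.25% of all genes tested, and 8 (7.48%) were higher, against 7.18%. In glutathione metabolism and NADPH supply, 9 of 31 were lower and 5 (16.1%) were higher. The 3 of smallest p were Slc3a2, the partner subunit of several amino acid exchangers (78.9 ± 5.76 in KO and 100.3 ± 5.08 in WT), the gamma-glutamyl transferase relative Ggt6 (7.16 ± 0.490 in KO and 9.41 ± 0.634 in WT) and the pentose phosphate enzyme Tkt (62.2 ± 3.29 in KO and 77.3 ± 4.39 in WT; SD, n = 4 each). Their limma adjusted p was 0.108 each, and no KO library of these 3 genes reached the WT range.

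Among 19 thioredoxin and peroxidase genes 6 were lower (31.6%) and 0 higher, led by the methionine sulfoxide reductase Msra (log2 fold change -0.17), catalase, Cat (-0.17), and the copper chaperone of SOD1, Ccs (-0.15). Cat was at -0.09 with quantile normalization (limma unadjusted p = 0.135) and Ccs at -0.08 with GC and length trends removed (limma unadjusted p = 0.116). Among 15 regulators of NRF2, 1 was lower at that p and 1 higher (6.67% each, against 8.25% and 7.18% of all genes tested). The MAF partner Mafg was the lower one (29.3 ± 0.930 in KO and 32.7 ± 1.66 in WT). Mafg lies on chromosome 11 (120625117 to 120633600), as does the targeted gene C1qtnf1 (118428203 to 118449963). Whether sequence of the embryonic stem cell strain remained near the deletion, and its part in the value of Mafg, was not tested. Cul3, the scaffold that works with KEAP1, was the higher one (34.2 ± 1.60 in KO and 30.6 ± 2.13 in WT, SD, n = 4 each), and Nfe2l1 was at 0.12. Their limma adjusted p-values were 0.223, 0.269 and 0.385. With GC and length trends removed, Mafg was at -0.08 (limma unadjusted p = 0.103), Cul3 at 0.06 (limma unadjusted p = 0.182) and Nfe2l1 at 0.17 (limma unadjusted p = 0.0171). Among 31 further NRF2 targets 5 were lower (16.1%) and 2 higher (6.45%). The ferritin light chain gene Ftl1 measured 2622 ± 107 in KO and 3162 ± 211 in WT, the aldehyde dehydrogenase Aldh7a1 measured 114 ± 4.10 in KO and 130.4 ± 4.34 in WT, and the carbonyl reductase Cbr1 measured 29.7 ± 4.15 in KO and 40.6 ± 8.48 in WT (SD, n = 4 each). With quantile normalization the log2 fold change of Ftl1, -0.27, was -0.09 (limma unadjusted p = 0.175). Of 11 further transferase and peroxidase relatives 0 were lower or higher at that p, and the 3 of smallest p were Gstcd (0.15), Gstp2 (-0.27) and Eef1g (-0.07).

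How many of the 42 genes stood lower depended on the libraries and the processing. After removal of GC and length trends 10 were lower at an unadjusted limma p under 0.05, all but Gsto1, Osgin1, Gpx1, Gpx3 and Gpx4 of the 15, against a background of 5.75%, and 3 (Gstp1, Gstt1 and Mgst3) did not overlap, against 3.27%. Across all genes the log2 fold change followed GC content (Spearman's rho -0.46 over genes, which are not independent). The 42 genes had a median GC content of 51.1% against 50.3% for all genes tested. Of the genes no longer lower, Gsto1 had a GC content of 51.0%, Osgin1 59.8%, Gpx1 56.5%, Gpx3 55.2% and Gpx4 58.3%. Without WT replicate 3, 10 were lower, against a background of 12.5%, and 9 did not overlap, against 11.6%. The count was 7 without WT replicate 2, against a background of 5.58%, and 8 without KO replicate 1, against 5.93%, so the share over all genes was smaller in these fits too. In each of these fits 6 did not overlap and were lower, against 5.23% of all genes without WT replicate 2 and 5.48% without KO replicate 1. Gstp1, Gstt1, Mgst3, Hmox1 and Gsta4 were lower at an unadjusted p under 0.05 in the reported fit and in all 19 alternatives. In none of the 19 did any of the genes pass after adjustment, and the smallest adjusted p was 0.0687, for Gstp1 without WT replicate 3.

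**Figure D5:**
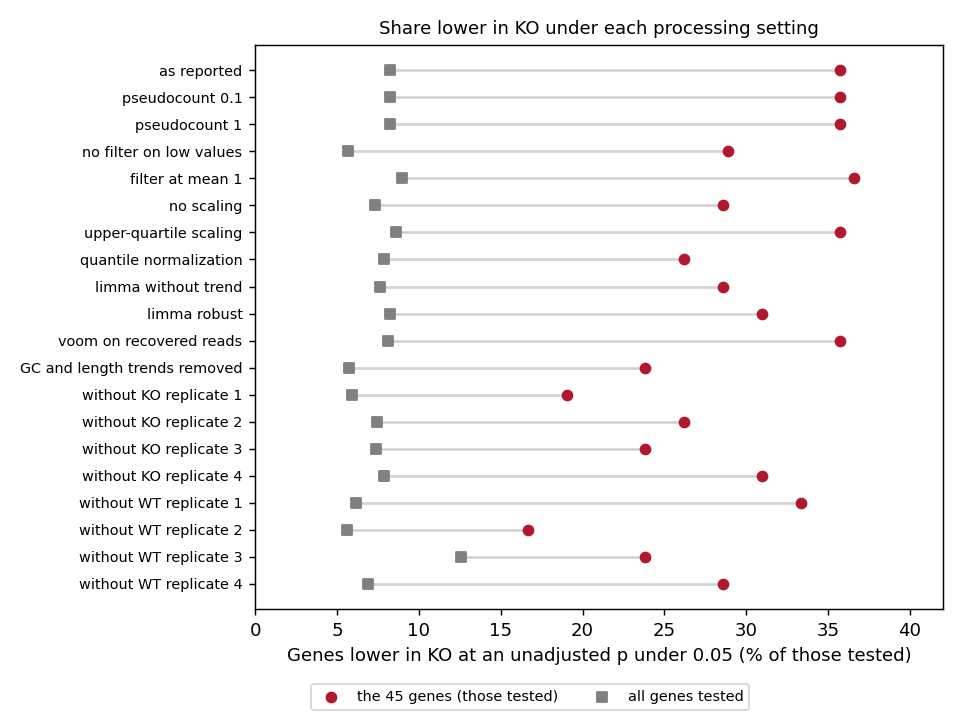
Share of genes lower in KO at an unadjusted limma p under 0.05 (horizontal axis, % of those tested) under each processing setting, for the glutathione and NRF2 genes (red circles) and for all genes tested (grey squares). The red points ran from 16.7% without WT replicate 2 to 36.6% with a filter at a mean of 1, and the grey squares from 5.58% to 12.5%.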

How the data were processed

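Poly-A RNA of 8 kidneys, 4 KO and 4 WT, was sequenced. The deposited table gives FPKM and gene length per gene, per the file headers. CASAVA, STAR 2.5, HTSeq 0.6.1, DESeq2 and build mm10 are named in the submitters' processing notes, without roles. Neither annotation release nor strandedness is recorded (not given in the sources used here). Multiplying FPKM by length and depth gave whole reads for 100% of values (tolerance 0.01), and 0 columns belonged to other samples. FPKM were divided by a median-ratio factor per library, genes with a mean under 0.5 were left out, and log2(value + 0.5) was tested with limma 3.58.1 (R 4.3.3, trend) and Benjamini-Hochberg adjustment over 14030 genes. Fold changes are on that log2 scale and understate low genes. Genes under the filter got exact permutation tests, whose smallest p is 0.0286. Intervals are 95%. GC content and shared 50-base stretches came from GENCODE vM21 transcripts. On simulated data for this comparison (13924 genes), limma recovered 15 of 50 genes with a 1.25-fold change and 26 of 49 with a 1.5-fold change. It recovered 39 of 49 with a 2-fold change and 48 of 50 with a 4-fold change, and 4 of its 132 calls were false. These data gave 7 calls, so the adjusted cutoff was looser in the simulation and recovery would be lower here.

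The genes and lists were chosen with earlier results of these data known. Values per library are given for genes with an unadjusted p under 0.05 or without overlap and for named core genes, and the 3 genes of smallest p from each further list. The labels give no litter, batch or sex per library. The p-values set the group difference against the spread between these kidneys and cannot account for litter or batch. The alternatives were other pseudocounts, filters, scalings and limma settings, voom on recovered reads, removal of GC and length trends, and leaving out each library.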

Additional observations from a re-analysis of the deposited data

Results flagged for a closer look

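In groups of 4 libraries, a library was singled out when its gap to the nearest other library took most of the group's range (Dixon's test at 95%). Of 138 groups examined 10 met this (7.25%), where chance gives about 1 in 20. In KO, Gsta1 was at 0.546 scaled FPKM in replicate 1 (0.396 to 0.416 in the other 3), Gstm2 at 62.8 in replicate 3 (35.0 to 38.6), Prdx6 at 82.2 in replicate 4 (77.7 to 78.4) and the injury marker Lcn2 at 4.08 in replicate 3 (0.353 to 0.646). In WT, replicate 3 was low for Gpx4 at 433 (510.1 to 525 in the other 3), Gss at 55.4 (69.8 to 72.0), Sod1 at 781 (904 to 908), the selenocysteine lyase gene Scly at 31.6 (38.1 to 39.1) and the selenocysteine elongation factor gene Eefsec at 10.8 (13.1 to 13.6). Mafg was high in WT replicate 1, at 35.2 (31.7 to 32.1 in the other 3). The 5 low values in WT replicate 3 fall in the library with the highest injury marker score, and the part of that in them was not tested.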

How the results depend on the processing

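No paired analysis was possible because the labels give no litter, batch or pair that KO and WT libraries share. Under the 19 alternatives no gene of the 45 passed after adjustment. Removal of GC and length trends left 0 genes higher at an unadjusted p under 0.05, against 5.35% of all genes tested. It left 0 without overlap and higher, and 3 (7.14%) without overlap and lower, against 3.27% of all genes for the latter. It turned the sign of Gstm4 (0.017), Prdx1 (-0.025), Keap1 (0.044) and Sod2 (-0.001). Leaving out 1 library gave 7 to 14 genes lower and 1 to 2 higher at that p, 6 to 13 without overlap and lower, and 1 to 2 without overlap and higher. In the same fits the shares of all genes ran from 5.58% to 12.5% lower and from 4.78% to 9.20% higher at that p. They ran from 5.23% to 11.6% without overlap and lower, and the share without overlap and higher is not given here. Over all genes 5 to 16 were called, with 16 without WT replicate 3. The log2 fold changes that turned sign when 1 library was left out ranged from -0.031 to 0.264 for Gstm2, from -0.083 to 0.011 for Gstm4, from -0.009 to 0.07 for Prdx1, from -0.031 to 0.094 for Gss, from -0.037 to 0.112 for Ggt1, from -0.085 to 0.004 for G6pdx, from -0.004 to 0.131 for Nfe2l2, from -0.122 to 0.012 for Keap1, from -0.084 to 0.002 for Txn1 and from -0.032 to 0.047 for Sod2. The cause was not tested. With 4 libraries a group, small differences can be missed. In the simulation 15 of 50 genes with a 1.25-fold change were recovered, and most of the 42 genes differed by less than that. The simulation gave 132 calls and these data 7, so the adjusted cutoff was stricter here and recovery would be lower.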

Other observations

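Among 14 tested genes of enzymes that make oxidants, 4 (28.6%) were lower in KO at an unadjusted limma p under 0.05, against 8.25% of all genes tested, and 0 were higher, against 7.18%, and none passed after adjustment (limma, 0 of 14). The peroxisomal hydroxyacid oxidase Hao2 measured 196 ± 12.2 scaled FPKM in KO and 233 ± 16.0 in WT, without overlap (log2 fold change -0.25, limma adjusted p = 0.173). Xanthine dehydrogenase, Xdh, measured 10.4 ± 1.06 in KO and 13.1 ± 1.60 in WT, and the NADPH oxidase subunit Cyba measured 463 ± 22.4 in KO and 536 ± 47.4 in WT (SD, n = 4 each). Ncf4 was the fourth.

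Gpx1, Gpx3 and Gpx4 encode selenocysteine-containing enzymes, and 9 genes of selenium supply and selenocysteine insertion were tested, of which 1 was lower and 1 higher at that p (11.1% each). Sepp1, the selenium transport protein of plasma, measured 1139.9 ± 62.3 in KO and 1011 ± 40.2 in WT, with every KO library above every WT library (log2 fold change 0.17, limma unadjusted p = 0.0166, adjusted p = 0.240). With GC and length trends removed Sepp1 was at 0.125 (limma unadjusted p = 0.0541). Scly, which recovers selenium from selenocysteine, measured 32.0 ± 1.07 in KO and 36.9 ± 3.53 in WT (SD, n = 4 each; -0.20, limma unadjusted p = 0.0209), and with GC and length trends removed it was at -0.119 (limma unadjusted p = 0.0596). Eefsec had a log2 fold change of -0.12 (limma unadjusted p = 0.163), which was -0.197 without WT replicate 3 (limma unadjusted p = 0.0149).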
